A study of Homo sapiens with 6 samples.

Results

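The ISG15 conjugation and deconjugation system was followed in the RNA of SW480 cells, a human colorectal cancer cell line, after transfection of siRNA against the long non-coding RNA AF339830, which the study named GLCC1. Its members were taken by gene symbol and comprised 6 of the 56638 genes listed in the count files. They were ISG15 itself, the activating enzyme UBA7, the conjugating enzyme UBE2L6, the ligases HERC5 and HERC6, and the protease USP18. All 6 passed the filter on low counts, which left 23074 genes to be tested. There were 3 libraries of cells given nonspecific siRNA (control siRNA) and 3 of cells given AF339830 siRNA, and the comparison between them was the only comparison of the design. No agent, time point or allele beyond the siRNA was given in the labels, and nothing there said whether the libraries of a group came from separate cultures, so p-values measured only the spread between these libraries.

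ISG15 is a ubiquitin-like protein that is attached to other proteins by a chain of enzymes resembling those of ubiquitin. UBA7 activates it, UBE2L6 accepts it, and HERC5 is its main ligase in human cells, whereas HERC6 is a close relative of HERC5 that does this work in the mouse. USP18 removes ISG15 from its targets and, apart from that activity, holds back signalling from the type I interferon receptor. All of these genes are known to be induced by interferon.

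Samples were grouped by their titles. The number that ends each title, after the word siRNA, is called the replicate here. No label says whether it marks a repeat or a different siRNA sequence, and the paper used more than 1 sequence against GLCC1. The library names given in the same records attach each group to the opposite siRNA, so that every direction reported below would turn with the names. AF339830 has no gene of its own in the files. FARP1, taken as the gene at its locus, a placement that was not checked here, had 109, 110.0 and 113 CPM (counts scaled to the normalized library size) in the control siRNA libraries and 63.2, 65.6 and 65.4 in the AF339830 siRNA libraries, a log2 fold change of -0.77 (SE 0.08, adjusted p = 9.2e-06 from edgeR). Whether its counts include reads of the lncRNA was not tested. The methods of the study name DLD-1 cells where the labels name SW480. Of 11 fixed markers of colorectal epithelium, all 11 were tested and 7 were lower in the AF339830 siRNA libraries, 1 was higher and 3 did not pass. Their summed level was between 5813 and 6350 CPM in the control siRNA libraries and between 2485 and 2899 CPM in the AF339830 siRNA libraries, mostly through the simple-epithelium keratins KRT8, KRT18 and KRT19, whose log2 fold changes were -1.61, -1.82 and -1.34. The intestinal transcription factor CDX1 had -0.96, while CDX2 had -0.24 and did not pass (adjusted p = 0.055 from edgeR). CDH17 was the marker that was higher, with 0.45 (adjusted p = 0.0020 from edgeR). VIL1 had 0.21 and did not pass (adjusted p = 0.067 from edgeR). Of the 3 tested fibroblast and endothelial markers, COL1A1 had -0.86 and the others did not pass. The defining leukocyte marker PTPRC was at 0 in all libraries, as were COL1A2 of fibroblasts and PECAM1 and CDH5 of endothelium. The 8 immune markers summed to between 44.7 and 50.5 CPM in the control siRNA libraries and between 40.2 and 45.7 CPM in the others, nearly all of it ITGAX. The part of the epithelial markers in the results below was not tested. Counts on genes ranged from 11948790 to 19042516 per library, and the smallest library, AF339830 siRNA replicate 2, also stood apart from its group. Its chi-square per degree of freedom against the other two was 16.3 and 17.1, while that between those libraries was 3.07.

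All 6 genes of the system rose in the AF339830 siRNA libraries. Each had an adjusted p under 0.05 in edgeR's quasi-likelihood test, where 31.6% of all tested genes passed in either direction, 14.9% as higher and 16.7% as lower. Genes that were higher made up 47% of all calls, and 62.9% when libraries were scaled by their totals alone. The 14.9% and 16.7% take in many genes with few counts. Under a filter of 10 counts in every library, which all 6 genes met, the shares were larger. There, 3430 of 14604 genes passed as higher and 3423 as lower. In each of the 6 genes, every AF339830 siRNA library was above every control siRNA library, as it was in 22.3% of all tested genes. The median log2 fold change of the 6 was 1.79, against 0.03 over all genes tested. The rises spanned from 2.25-fold for ISG15 to 5.05-fold for HERC5 in mean CPM. In bulk RNA of a culture, a higher level per cell and a larger number of expressing cells cannot be told apart.

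**Figure D1:**
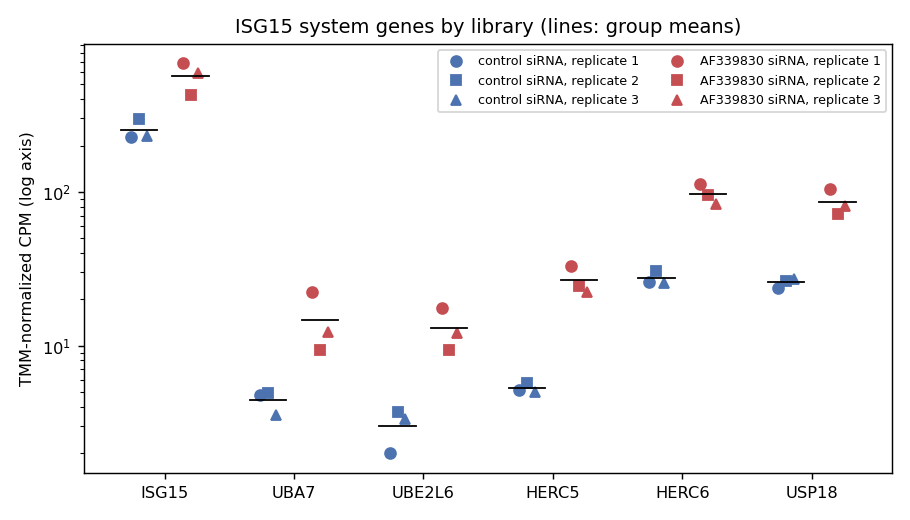
Normalized CPM (log axis) of the 6 genes in each library, with a symbol for each replicate and a line at each group mean. In every gene the 3 AF339830 siRNA libraries (red) lie above the 3 control siRNA libraries (blue), and replicate 1 is the highest of the red symbols.

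ISG15, the modifier itself, had 227, 298 and 229.7 CPM in the control siRNA libraries and 683, 425 and 589 CPM in the AF339830 siRNA libraries. The groups did not overlap, and the lowest AF339830 siRNA library was replicate 2. The mean went from 252 ± 40.3 (SD, n = 3) to 566 ± 131 CPM (SD, n = 3), a log2 fold change of 1.17 (SE 0.15, adjusted p = 5.5e-05 from edgeR), the smallest of the 6. Among 14875 genes averaging 1 CPM or more, 400 had a larger log2 fold change. Without AF339830 siRNA replicate 2 the log2 fold change was 1.34 (adjusted p = 0.0050 from edgeR). The gene spans 936518 to 949920 of chromosome 1 (hg19, plus strand), and its canonical transcript is 637 bases long. The annotated gene ENSG00000231702 overlaps its exons on the opposite strand, and since the strand setting of the counting is not known, reads of the overlap cannot be told apart.

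The promoter of ISG15 is shown because interferon is known to act on such genes through the interferon-stimulated response element (ISRE). Complexes of STAT and IRF proteins bind this element. The part of interferon in these results was not tested. The window covers 250 bases before the annotated start and 50 bases from it, from the RefSeq annotation of GRCh38.p14 (chr1:1013247-1013546, plus strand). The span given above comes from other gene models, and its ends were not matched to this start. Capitals mark the ISRE core, a GAAA followed after any 2 bases by a further GAAA, which was searched for on both strands.

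ISG15: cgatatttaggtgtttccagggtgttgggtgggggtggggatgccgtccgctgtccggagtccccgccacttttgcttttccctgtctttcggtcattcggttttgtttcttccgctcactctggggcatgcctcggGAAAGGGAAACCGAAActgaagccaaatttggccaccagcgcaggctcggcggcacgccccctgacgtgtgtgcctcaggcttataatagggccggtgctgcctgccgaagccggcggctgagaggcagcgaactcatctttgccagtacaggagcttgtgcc

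The window held 2 overlapping matches, at bases -113 to -104 and -107 to -98 before the start. Of 35116 promoter windows of the same length, 3.57% held at least 1 such match. The gamma-activated site, TTC and GAA with any 3 bases between them, was in 7.66% of all windows and in none of those of the members. A match is a description of the letters and was not tested as a site.

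UBA7 is the E1 enzyme that activates ISG15 and takes the place that UBA1 has for ubiquitin. Its level was low, with 4.80, 4.90 and 3.55 CPM in the control siRNA libraries and 22.3, 9.31 and 12.25 CPM in the AF339830 siRNA libraries. Replicate 1 stood well above the other AF339830 siRNA libraries, and the lowest of them was still above all controls. The log2 fold change was 1.75 (SE 0.27, adjusted p = 2.7e-04 from edgeR), with the largest standard error of the 6, and it was 1.30 without AF339830 siRNA replicate 1 (adjusted p = 2.7e-04 from edgeR). The counts behind it were between 59 and 89 in the control siRNA libraries and between 117 and 428 in the others. UBA7 spans 49842642 to 49851386 of chromosome 3 (hg19, minus strand). UBA1, the main E1 enzyme of ubiquitin, had 469 ± 25.5 CPM (SD, n = 3) in the control siRNA libraries and 367 ± 67.2 (SD, n = 3) in the others. Its log2 fold change of -0.35 passed narrowly (adjusted p = 0.032 from edgeR) and no longer passed when libraries were scaled by their totals alone (adjusted p = 0.13), nor without any 1 of the control siRNA libraries (adjusted p between 0.060 and 0.14).

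UBE2L6, the E2 enzyme that receives ISG15 from UBA7, had 1.99, 3.69 and 3.31 CPM in the control siRNA libraries and 17.5, 9.31 and 12.0 CPM in the AF339830 siRNA libraries. These came from 29, 67 and 55 counts and from 336, 117 and 215 counts, so UBE2L6 had the fewest counts of the 6 genes in the controls. The control libraries varied most in this gene, replicate 1 being lowest, and the groups did not overlap. The log2 fold change was 2.11 (SE 0.25, adjusted p = 2.5e-05 from edgeR). UBE2L6 spans 57319129 to 57335757 of chromosome 11 (hg19, minus strand). UBE2L3, its nearest relative, which serves ubiquitin and not ISG15, had 128, 127 and 128 CPM in the control siRNA libraries and 99.6, 80.4 and 98.7 in the others. It fell by 0.46 on the log2 scale (SE 0.09, adjusted p = 0.0021 from edgeR), and all of its AF339830 siRNA libraries were below all controls. The log2 ratio of UBE2L6 to UBE2L3 counts was -5.45 ± 0.47 (SD, n = 3) in the controls and -2.88 ± 0.33 (SD, n = 3) in the others.

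HERC5, the ligase that sits at the ribosome and attaches ISG15 to newly made proteins, showed the largest rise of the 6. It had 5.14, 5.68 and 5.00 CPM in the control siRNA libraries and 33.1, 24.3 and 22.4 CPM in the AF339830 siRNA libraries. The controls lay close together, and the lowest AF339830 siRNA library was far above them. The log2 fold change was 2.34 (SE 0.16, adjusted p = 3.1e-07 from edgeR), and 41 of the same 14875 genes had a larger value.

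HERC6 had 25.7, 30.5 and 25.7 CPM in the control siRNA libraries and 112, 94.9 and 83.5 CPM in the AF339830 siRNA libraries. Its AF339830 siRNA libraries varied least among the 6 genes relative to their mean, and the groups were far apart. The log2 fold change was 1.82 (SE 0.12, adjusted p = 2.2e-07 from edgeR). HERC6 and HERC5 are neighbours on chromosome 4 of hg19, from 89299891 to 89364249 and from 89378270 to 89427314, both on the plus strand and 14021 bases apart. HERC3, the next HERC gene on the same strand, from 89513585 to 89629692, had 61.6, 59.3 and 65.9 CPM in the control siRNA libraries and 43.4, 43.2 and 42.3 in the others, and fell by 0.54 on the log2 scale (SE 0.09, adjusted p = 3.9e-04 from edgeR). HERC6 and HERC5 thus rose while HERC3, farther along the same chromosome, fell.

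The promoter windows of both ligases are shown for comparison, since the genes lie side by side and rose together. They are from the same annotation of GRCh38.p14, at chr4:88456869-88457168 for HERC5 and chr4:88378602-88378901 for HERC6, both on the plus strand, with ISRE cores in capitals on either strand.

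HERC5: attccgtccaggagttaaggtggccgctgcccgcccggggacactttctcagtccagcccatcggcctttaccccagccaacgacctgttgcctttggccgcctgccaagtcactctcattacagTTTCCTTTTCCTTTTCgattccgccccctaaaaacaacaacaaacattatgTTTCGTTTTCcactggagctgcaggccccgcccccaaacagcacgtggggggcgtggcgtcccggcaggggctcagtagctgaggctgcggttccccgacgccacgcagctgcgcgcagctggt

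HERC6: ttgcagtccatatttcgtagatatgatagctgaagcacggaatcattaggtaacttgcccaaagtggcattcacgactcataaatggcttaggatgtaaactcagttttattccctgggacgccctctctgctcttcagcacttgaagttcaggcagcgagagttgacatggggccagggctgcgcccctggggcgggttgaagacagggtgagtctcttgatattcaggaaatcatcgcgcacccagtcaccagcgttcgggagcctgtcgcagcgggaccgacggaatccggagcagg

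The HERC5 window held 3 matches, all on the opposite strand, at bases -125 to -116, -119 to -110 and -74 to -65, the first of these overlapping the next. The HERC6 window held no match, and neither did the 2 windows listed for UBE2L6. Windows for 4 of the 6 genes were in the table, and those of UBA7 and USP18 were not.

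USP18, the protease that removes ISG15, had 23.7, 26.2 and 27.3 CPM in the control siRNA libraries and 105, 71.4 and 80.9 CPM in the AF339830 siRNA libraries. All AF339830 siRNA libraries were above all controls, with replicate 1 highest. The mean went from 25.7 ± 1.83 (SD, n = 3) to 85.6 ± 17.1 CPM (SD, n = 3), a log2 fold change of 1.74 (SE 0.13, adjusted p = 6.4e-07 from edgeR). USP18 spans 18632885 to 18660164 of chromosome 22 (hg19, plus strand). Of the 1809 words of 50 bases in its canonical transcript, 27.0% also occur in annotated transcripts of other genes, USP41 foremost, so that read pairs falling wholly within them may not have been counted. USP41 itself had 0 counts in every control siRNA library and 1, 4 and 0 counts in the AF339830 siRNA libraries. Among the other members, such words were found in HERC6, where 0.805% were shared with HERC3, and in none of the other 4.

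**Figure D2:**
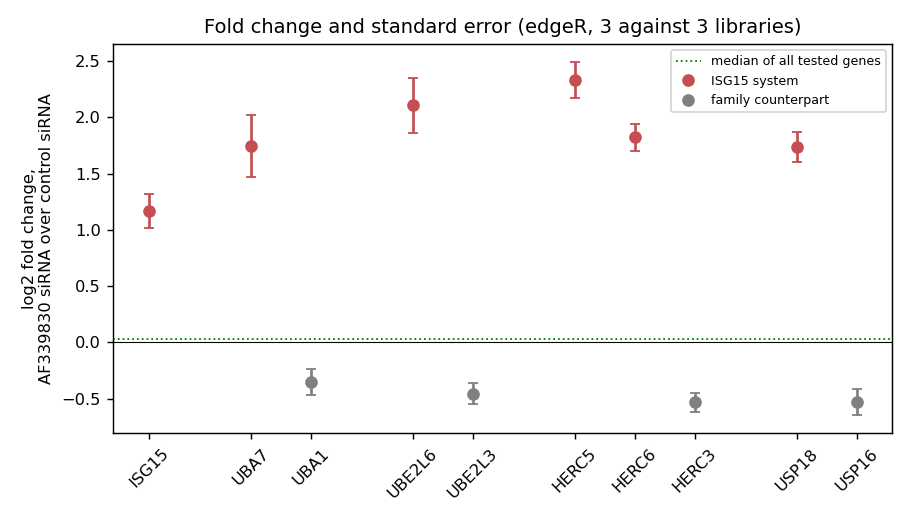
Log2 fold change of AF339830 siRNA over control siRNA libraries with its standard error (edgeR, 3 against 3 libraries), for the 6 genes of the ISG15 system (red) and for 1 gene of each enzyme family (grey), all of them among those that fell. The red points lie between 1.17 and 2.34, while UBA1, UBE2L3, HERC3 and USP16 lie between -0.54 and -0.35; the dotted line is the median of all tested genes at 0.03.

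The sizes of the rises were compared between members. In each library the ratio of counts of a pair of genes does not depend on how libraries are scaled, and 6 such ratios were compared with two-sided exact permutation tests, which cannot give a p below 0.1 with 3 libraries against 3. The log2 count ratio of ISG15 to USP18 was 3.28 ± 0.22 (SD, n = 3) in the controls and 2.71 ± 0.15 (SD, n = 3) in the AF339830 siRNA libraries, a difference of -0.56 (exact permutation p = 0.1, adjusted p = 0.12 over 6 ratios). The log2 ratio of HERC6 to HERC5 differed by -0.49 (exact permutation p = 0.1, adjusted p = 0.12), and the ratio was nearly constant within each group, at SDs of 0.05 and 0.11 (n = 3). The ratios of UBE2L6 to UBE2L3, of HERC5 to HERC3 and of UBA7 to UBA1 were higher by 2.56, 2.84 and 2.004 on the log2 scale, each with an exact permutation p of 0.1 and no overlap between the groups. For USP18 to UBE2L6 the difference was -0.38 and the groups overlapped (exact permutation p = 0.2, adjusted p = 0.2), and leaving out single libraries gave between -0.54 and -0.17. None of the 6 differences passed the adjustment at 0.05, which this design does not allow.

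Levels of different genes were set side by side per length, as normalized CPM per kilobase of annotated exon. In the control siRNA libraries the order was ISG15 at 290.3 ± 46.4 (SD, n = 3), USP18 at 6.29 ± 0.446, HERC6 at 4.72 ± 0.484, UBE2L6 at 1.45 ± 0.434, HERC5 at 1.11 ± 0.0749 and UBA7 at 0.971 ± 0.165. The last 3 overlapped in range from library to library, whereas HERC6 and USP18 did not. In the AF339830 siRNA libraries the order was the same, with ISG15 at 653 ± 151 (SD, n = 3), USP18 at 20.9 ± 4.18, HERC6 at 16.7 ± 2.48, UBE2L6 at 6.28 ± 2.03, HERC5 at 5.58 ± 1.20 and UBA7 at 3.21 ± 1.499. There USP18 overlapped HERC6, UBE2L6 overlapped HERC5, and UBA7 overlapped both of the latter. ISG15 made up between 94.8% and 95.6% of the summed per-length level of the 6 genes in the controls and between 91.5% and 93.5% in the AF339830 siRNA libraries. The mean share of HERC5 was 0.366% in the controls and 0.804% in the others, and that of HERC6 was 1.56% and 2.44%. That of UBA7 overlapped between the groups. After ISG15, the protease and HERC6 were the most abundant per length in both groups.

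The order of the libraries within a group was alike in part among the 6 genes. Relative to its control mean, each was highest in AF339830 siRNA replicate 1, with log2 values between 1.44 for ISG15 and 2.65 for HERC5. ISG15, UBA7, UBE2L6 and USP18 were lowest in replicate 2, the shallowest library, at 0.76, 1.07, 1.63 and 1.47. HERC5 and HERC6 instead were lowest in replicate 3, at 2.09 and 1.61, and stood at 2.20 and 1.80 in replicate 2. Among the controls, replicate 2 was highest for every gene of the system but USP18, which was highest in replicate 3. The part of depth in this order was not tested.

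**Figure D3:**
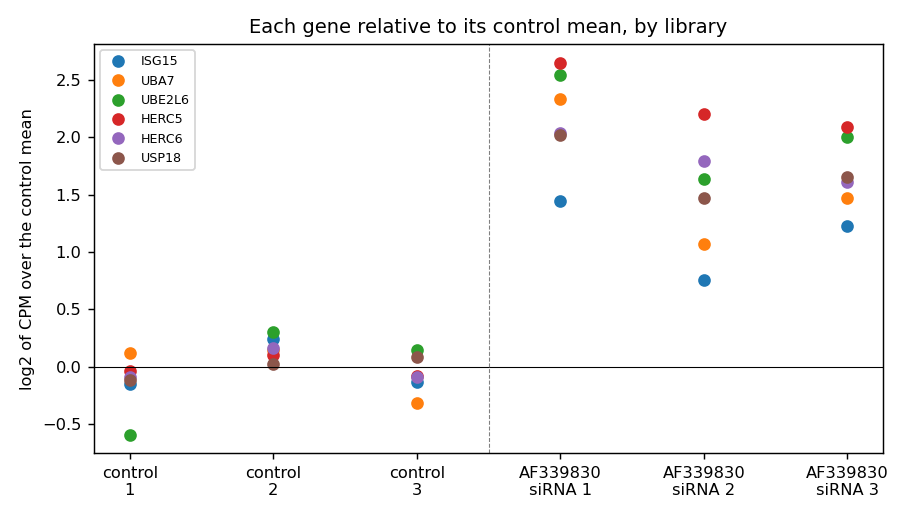
Log2 of CPM over the control mean for the 6 genes (colours) in each library. The control siRNA libraries scatter between -0.59 and 0.30, the AF339830 siRNA libraries between 0.76 and 2.65, with HERC5 the highest and ISG15 the lowest gene in each of the latter.

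Of the same 14875 genes, whatever their level, 60 had a larger log2 fold change than UBE2L6, 87 than HERC6, 107 than UBA7 and 110 than USP18. ISG15, at a mean level well above those of the other 5, was passed by 400 genes.

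**Figure D4:**
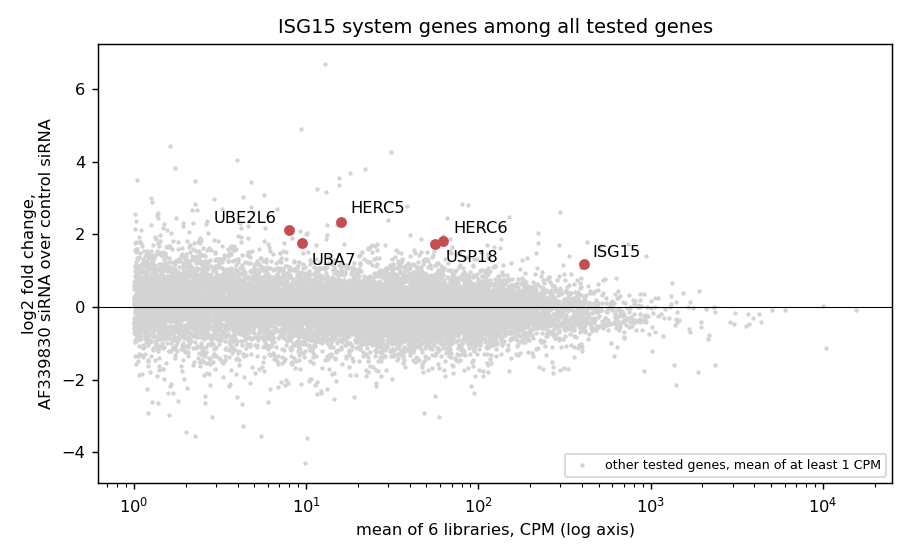
Log2 fold change of AF339830 siRNA over control siRNA against mean CPM (log axis) for each tested gene averaging 1 CPM or more (grey), with the 6 genes of the ISG15 system in red. All 6 are above 1.1 on the log2 scale at mean levels that range from the low UBE2L6 to the high ISG15.

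The other members of the enzyme families were counted against the 14.9% of all tested genes that passed as higher and the 16.7% that passed as lower. Both shares were larger under the filter of 10 counts in every library (3430 and 3423 of 14604 genes). Of 8 other E1 enzymes, none rose, 5 fell and 3 did not pass, with a median log2 fold change of -0.34. Among those that fell were ATG7, the E1 enzyme of autophagy (-0.60, adjusted p = 0.0059 from edgeR), and UBA2, of the SUMO pathway (-0.46, adjusted p = 0.0017). Scaled by library totals alone, 3 of the 8 fell and 1 rose. Of 32 other E2 enzymes, 5 rose and 12 fell, and 15 did not pass, with a median of -0.13. The widest change there was that of UBE2T, which acts with the Fanconi anaemia ligase in DNA repair, from 78.5 ± 4.73 (SD, n = 3) to 23.8 ± 2.02 CPM (SD, n = 3), a log2 fold change of -1.72 (SE 0.10, adjusted p = 7.5e-08 from edgeR). UBE2E3 rose by 0.70 (adjusted p = 3.4e-04 from edgeR), the largest rise of the E2 list, and UBE2W by 0.46 (adjusted p = 0.029), while UBE2G1 fell by 0.46 (adjusted p = 0.0032). Scaled by library totals alone, 8 E2 enzymes rose and 7 fell, and without AF339830 siRNA replicate 2 these counts were 8 and 18. Of the 4 other HERC ligases, HERC3 and HERC2 fell (-0.54 and -0.24), HERC1 rose (0.30, adjusted p = 0.013 from edgeR), and HERC4 had -0.06 (adjusted p = 0.75). Scaled by library totals alone, HERC2 no longer passed (-0.12, adjusted p = 0.29 from edgeR), and HERC4 had 0.07.

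Of 2 other ligases with a reported activity on ISG15, 1 fell and 1 did not pass. Over all tested genes 14.9% passed as higher and 16.7% as lower. TRIM25, a ligase of ISG15 and of the RNA sensor RIG-I, had 212 ± 7.60 CPM (SD, n = 3) in the control siRNA libraries and 221 ± 15.9 (SD, n = 3) in the others, a log2 fold change of 0.06 (SE 0.08, adjusted p = 0.63 from edgeR). ARIH1, which ligates ISG15 to the translation factor EIF4E2, fell by 0.50 (SE 0.09, adjusted p = 9.0e-04 from edgeR). Of 6 further proteases that can act on ISG15, 4 fell, 1 rose and 1 did not pass. USP16 went from 97.8 ± 4.48 (SD, n = 3) to 67.8 ± 13.2 CPM (SD, n = 3), a log2 fold change of -0.53 (adjusted p = 0.0036 from edgeR), and USP21 had -0.57 (adjusted p = 0.0014), while USP5 had -0.28 (adjusted p = 0.047). USP13 rose by 0.26 (adjusted p = 0.039 from edgeR). Scaled by library totals alone, 3 of the 6 fell, and USP5 no longer passed (-0.16, adjusted p = 0.24 from edgeR).

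For 5 genes of proteins that USP18 and free ISG15 act through, log2 fold changes of the RNA were between 0.02 and 0.49. STAT2, which brings USP18 to the interferon receptor, had 81.0, 89.3 and 80.2 CPM in the control siRNA libraries and 138, 99.7 and 109 in the others, and rose by 0.47 on the log2 scale (SE 0.11, adjusted p = 0.0062 from edgeR). IFNAR2, the receptor chain to which USP18 binds, had a log2 fold change of 0.12 (SE 0.10, adjusted p = 0.38). SKP2, the F-box protein that marks USP18 for degradation, rose by 0.49 (SE 0.09, adjusted p = 6.7e-04 from edgeR). ITGAL, a chain of the integrin that serves as receptor of secreted ISG15, had between 1 and 3 counts in each library, too few to read a change. Of 10 genes that carry the interferon signal to ISG15, 4 rose, none fell and 6 did not pass, with a median of 0.22. Over all tested genes 14.9% passed as higher and 16.7% as lower. Among those that rose were IRF7 with 0.64 (adjusted p = 0.0023 from edgeR) and IRF1 with 0.50 (adjusted p = 0.023). IRF9, a DNA-binding partner of STAT2, had 0.31 (SE 0.14, adjusted p = 0.10). Scaled by library totals alone, IRF9 passed with 0.44 (adjusted p = 0.023 from edgeR), and 5 of the 10 genes rose.

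Proteins reported as targets of ISG15 moved both ways at the level of their RNA. Of 24 such genes, 10 rose, 4 fell and 10 did not pass, with a median log2 fold change of 0.11. Over all tested genes 14.9% passed as higher and 16.7% as lower. The number that fell was near the share of all tested genes, those with few counts included. Scaled by library totals alone, 11 rose and 2 fell. Among those that rose were interferon-induced genes, IFIT1 with 2.62, DDX58, the gene of RIG-I, with 1.87, and MX1 with 1.31. TSG101, a sorting factor of the endosome, was the lowest with -0.94 (SE 0.09, adjusted p = 3.5e-06 from edgeR), and CCND1, at over 1000 CPM in every library, had -0.07 (adjusted p = 0.53). Of 14 other ubiquitin-like modifiers tested, 2 rose, SUMO2 by 0.60 and SUMO3 by 0.50, and 3 fell, among them URM1 by 0.61 and FAU by 0.37. Both counts were near the shares of all tested genes, those with few counts included. Without AF339830 siRNA replicate 2, 5 of the modifiers fell. UBD, the gene of FAT10 and the other modifier known to follow interferon, was at 0 counts in all 6 libraries.

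Of the 10 protein-coding neighbours that are not members, 8 were tested, 1 rose, 1 fell and 6 did not pass, where 31.6% of all tested genes passed in either direction. HES4 and AGRN, on either side of ISG15, had -0.30 (SE 0.19, adjusted p = 0.26 from edgeR) and -0.02 (SE 0.14, adjusted p = 0.95). TRAIP, beside UBA7, fell by 0.42 (SE 0.11, adjusted p = 0.011 from edgeR). PPM1K, 93970 bases from HERC6, rose by 0.56 (SE 0.11, adjusted p = 0.0016 from edgeR). The remaining tested neighbours had few counts and did not pass. TUBA8, beside USP18, had 0.88 (SE 0.32, adjusted p = 0.053 from edgeR), and SMTNL1, beside UBE2L6, had 1.27 (SE 0.59, adjusted p = 0.12). AC008132.13, on the other side of USP18, had 3.89 (SE 1.90, adjusted p = 0.15) from at most 3 counts in a library. CDHR4, beside UBA7, had -0.29 (SE 0.31, adjusted p = 0.52). PYURF and SERPING1 were at 0 counts in all libraries.

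The genes most like ISG15 over the 6 libraries were found by the distance between log2 CPM values centred on the control mean, among 10376 genes averaging 10 CPM or more. The nearest was FOXP4, a transcription factor, at a distance of 0.23, followed by NLRC5, the transactivator of MHC class I genes (0.28), TENC1, a tensin (0.29), TAP2, a peptide transporter of the same pathway (0.30), and CSF1, a macrophage growth factor (0.31). Their log2 fold changes were between 1.06 and 1.25. USP18, HERC6 and HERC5 ranked 490, 879 and 4258 by the same distance, with larger log2 fold changes than ISG15. The distance takes in the size of a change, so a larger rise alone moves a gene away from ISG15. UBA7 and UBE2L6 averaged under 10 CPM and were not ranked.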

How the data were processed

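RNA from 6 libraries was measured by paired-end sequencing. The authors mapped reads to hg19 with TopHat 2.0.11 and deposited, for each library, the raw HTSeq counts by gene symbol (union mode). Strand setting is not given in the sources used here, and read pairs mapping to several places were tallied apart from genes. Genes whose counts came to under 5 in the sum of each group were removed. Counts were TMM-normalized and tested in edgeR 4.0.16 (robust quasi-likelihood, R 4.3.3) with Benjamini-Hochberg adjustment over all tested genes. A call is an adjusted p under 0.05, the SE is the fold change over the root of the F statistic, and ratios had 0.5 counts added. Members and lists were chosen with earlier results of these data known. Other genes were named when called, at a mean of at least 10 CPM, up to 4 a list by size of change. Family counterparts, neighbours and the 5 genes nearest ISG15 were named besides. TSG101, IRF9, IFNAR2, TRIM25, HERC4, CCND1, ITGAL, UBD and FAU were named after their values were seen. So were CDH17, CDX2, VIL1 and the neighbours that did not pass. Gene models come from GENCODE 44 on hg19, whereas the authors name an Ensembl annotation of GRCh37 for their mapping. Alternatives were DESeq2 1.42.0 with and without a prior, its size factors, library totals, 2 other filters, the replicate block, grouping by library name, and leaving out single libraries. Some genes that this rule names are not reported here.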

Additional observations from a re-analysis of the deposited data

How the results depend on the processing

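With the groups of the library names every fold change turned sign, to -1.17 for ISG15, -1.75 for UBA7, -2.11 for UBE2L6, -2.34 for HERC5, -1.82 for HERC6 and -1.74 for USP18. Under every other alternative all 6 rose with an adjusted p under 0.05. With each library left out in turn, log2 fold changes were between 1.02 and 1.34 for ISG15, 1.30 and 1.98 for UBA7, 1.83 and 2.28 for UBE2L6, 2.14 and 2.45 for HERC5, 1.71 and 1.92 for HERC6, and 1.57 and 1.85 for USP18. The highest adjusted p from edgeR among these was 0.018, for UBA7 without AF339830 siRNA replicate 2. Libraries sharing a replicate number did not deviate together (correlations of -0.16, -0.29 and -0.01 across 14875 genes), and the replicate block gave 6522 called genes in place of 7293 and kept all 6 calls, with 1.16 for ISG15 and 2.31 for HERC5. Under the block, 7 of the 24 reported targets rose and 3 fell, none of the 6 further proteases rose, USP13 included, and 3 fell, and 1 of the 4 other HERC ligases fell. Scaling by library totals alone moved the median of all genes from 0.03 to 0.15 and the share of called genes that rose from 47% to 62.9%, and 7532 genes were called. Without AF339830 siRNA replicate 2, 9920 genes were called. Per kilobase of the longest transcript, the levels in the controls were 1.34 for UBA7, 1.91 for UBE2L6, 1.502 for HERC5, 7.22 for HERC6 and 8.71 for USP18, and in the AF339830 siRNA libraries 7.58 for HERC5, 25.6 for HERC6 and 29.0 for USP18, by the shorter length used. Low counts limit UBE2L6 and UBA7 most.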
